A study of Mus musculus with 6 samples.

Results

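Protamines and transition proteins are, for the most part, small basic nuclear proteins that take the place of histones while the spermatid nucleus condenses. The genes examined were the transition protein genes Tnp1 and Tnp2 and the protamine genes Prm1, Prm2 and Prm3. They were chosen by symbol and not by any measured value, although earlier results of these data were known. All 5 were found among the 23361 genes of the deposited table, and all 5 passed the filter on low counts. Polyadenylated RNA from whole testes of 6 adult mice (strain C57BL/6J, close to 120 days old) was sequenced. Every animal, controls included, was homozygous for Ret (V805A), a substitution that lets the compound 1NaPP1-HCl inhibit the Ret kinase, the signalling receptor for glial cell line-derived neurotrophic factor (GDNF). In the inhibitor group, 3 mice were injected daily for 9 days with 1NaPP1-HCl dissolved in vehicle, and in the control group 3 mice received the vehicle of saline, cremophor and ethanol alone, in both groups at 10 microliters per gram of body weight. Testes were collected on day 14, after 5 days without injections. Mice given the inhibitor but lacking the substitution were not analysed here, so inhibition of Ret and any other action of 1NaPP1-HCl cannot be told apart.

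During spermiogenesis most histones leave the chromatin of elongating spermatids, transition proteins occupy it for a time, and protamines then compact the DNA into the sperm head. Tnp1, Tnp2, Prm1 and Prm2 are transcribed in round spermatids, and their messages are stored as repressed ribonucleoprotein particles and translated days later in elongating spermatids. RNA and protein of these genes therefore do not appear together in time. GDNF acts much earlier in the lineage, on undifferentiated spermatogonia, which need several weeks to become elongating spermatids.

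Of these genes, 4 lie in a cluster on the reverse strand of chromosome 16, in the transcription order Prm1, Prm2, Prm3 and Tnp2. RefSeq (GRCm38.p6, the assembly of mm10) places Prm1 at chr16:10796332-10796823, Prm2 at chr16:10791377-10792105, Prm3 at chr16:10790508-10790914 and Tnp2 at chr16:10787935-10788655. The Prm2, Prm3 and Tnp2 start sites are 4718, 5909 and 8168 bases downstream of the Prm1 start. Tnp1 lies apart, at chr1:73015074-73015899, also on the reverse strand. All have short transcripts. GENCODE M21 gives Tnp1 a transcript of 437 nt, Tnp2 of 554 nt, Prm3 of 410 nt without an intron, Prm1 transcripts of 469 and 460 nt and Prm2 transcripts of 621 and 674 nt.

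**Figure D1:**
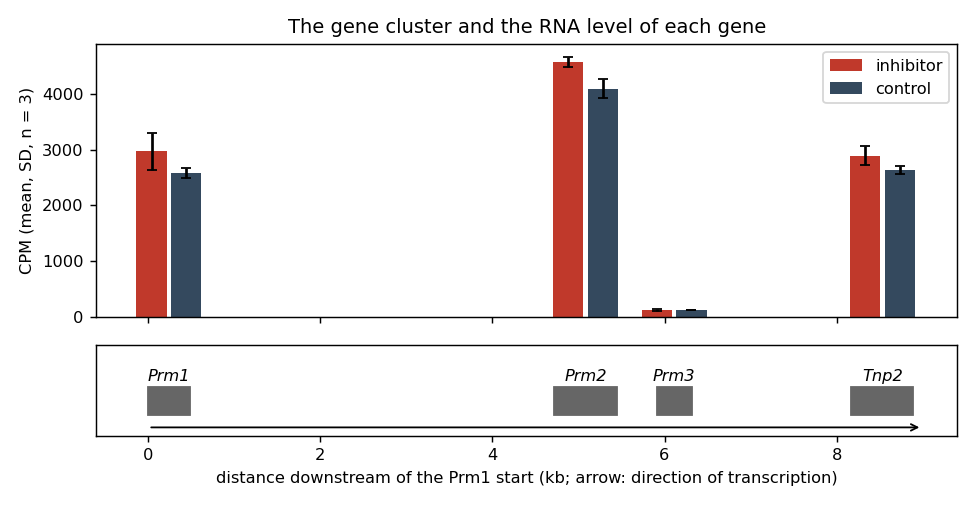
Mean CPM (fragments scaled to a common library size) of the 4 clustered genes in inhibitor and control mice, with SD over 3 mice each, above the position of each gene along the cluster. Prm2 is at 4569 CPM in inhibitor mice and 4090 CPM in controls, and Prm3, between Prm2 and Tnp2, is at 125 CPM in inhibitor mice and 118 CPM in controls.

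The 150 bases before each RefSeq start site are shown because the clustered genes share a chromosome region but not a level, Prm3 being far below its neighbours in deposited FPKM, a level per transcript length. They are the reference sequences of RefSeq, read 5′ to 3′ on the strand of the gene, at chr1:73015900-73016049 for Tnp1 and, on chromosome 16, chr16:10788656-10788805 for Tnp2, chr16:10796824-10796973 for Prm1, chr16:10792106-10792255 for Prm2 and chr16:10790915-10791064 for Prm3. Capitals mark matches to TATAA on either strand and to TGANNTCA, a palindromic pattern that includes the cAMP response element bound by CREM, the activator of many spermatid genes.
Tnp1: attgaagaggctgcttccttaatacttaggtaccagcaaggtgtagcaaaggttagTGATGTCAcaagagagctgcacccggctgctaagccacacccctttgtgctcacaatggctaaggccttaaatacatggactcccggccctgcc
Tnp2: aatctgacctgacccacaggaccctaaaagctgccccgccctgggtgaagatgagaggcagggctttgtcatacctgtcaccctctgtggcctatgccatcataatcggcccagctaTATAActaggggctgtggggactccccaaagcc
Prm1: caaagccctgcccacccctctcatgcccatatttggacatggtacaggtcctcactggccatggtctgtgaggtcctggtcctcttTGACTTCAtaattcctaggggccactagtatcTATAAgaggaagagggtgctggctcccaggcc
Prm2: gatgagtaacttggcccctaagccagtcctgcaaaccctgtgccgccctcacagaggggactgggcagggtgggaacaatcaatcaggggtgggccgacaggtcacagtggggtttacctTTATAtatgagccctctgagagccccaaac
Prm3: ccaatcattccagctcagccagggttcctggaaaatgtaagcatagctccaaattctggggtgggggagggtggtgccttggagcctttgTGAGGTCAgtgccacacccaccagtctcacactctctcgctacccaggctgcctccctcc
TATAA was found at -32 to -28 from the start in Prm1, at -33 to -29 in Tnp2 and, on the opposite strand, at -30 to -26 in Prm2, and in neither orientation in Tnp1 or Prm3. Among 32851 RefSeq start sites, 14.15% held it in the same 150 bases. TGANNTCA, a pattern chosen after these sequences were seen, was found at -94 to -87 in Tnp1, at -64 to -57 in Prm1 and at -60 to -53 in Prm3, and in 8.37% of all start sites over the same length. The other motifs were TGACG, the core of the cAMP response element, and CCAAT, both searched on both strands of the whole 300-base window from 250 bases before to 50 bases after the start. TGACG was in none of the 5 windows and in 20.8% of all windows. CCAAT was in the Prm3 window, at -150 to -146, and in 37.4% of all windows. A match is a description of the letters and not evidence of binding.

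The libraries held 29069387, 23144295 and 28871412 assigned fragments in inhibitor mice 1, 2 and 3 and 24788698, 43127890 and 29227418 in controls 1, 2 and 3. Inhibitor mouse 3 stood apart from the other inhibitor mice: chi-square values per degree of freedom between fragment counts were 12.1 and 13.1 for its pairs with inhibitor mice 1 and 2, against 4.94 for inhibitor mice 1 and 2 and 4.23 to 6.05 among controls. Of 16658 genes tested with edgeR's quasi-likelihood test (Benjamini-Hochberg adjusted p threshold 0.05), 10 were called higher and 16 lower in inhibitor mice, and without inhibitor mouse 3 these counts were 1470 and 935 of 16871. The count in all was 0 without inhibitor mouse 1, inhibitor mouse 2, control 1 or control 2 and 10 without control 3, with 973 to 1124 genes higher and 945 to 1085 lower at an unadjusted p threshold of 0.05 where it was 0. The summed level of 10 markers of undifferentiated spermatogonia was 77.5 to 92.1 CPM in inhibitor mice and 106 to 108 CPM in controls. That of 5 markers of differentiating spermatogonia was 580.0 to 619 CPM in inhibitor mice and 564 to 569 CPM in controls. For 7 spermatocyte markers the sum was 5869 to 6187 CPM in inhibitor mice and 5367 to 5662 CPM in controls. Such sums follow their most abundant members, and not all 7 spermatocyte markers were higher. Piwil1 was at 421, 463 and 443 CPM in inhibitor mice 1, 2 and 3, against 514, 468 and 470 CPM in controls. The sum of 10 Sertoli cell markers was 1403 to 1687 CPM in inhibitor mice, the highest value in mouse 3, and 1501 to 1536 CPM in controls. The sum of 6 Leydig cell markers was 857 to 1026 CPM in inhibitor mice and 918 to 1161 CPM in controls, that of 4 peritubular myoid markers 117 to 130 CPM in inhibitor mice and 126 to 178 CPM in controls, and that of 4 endothelial markers 30.3 to 38.2 CPM in inhibitor mice and 37.7 to 40.0 CPM in controls. The sum of 4 macrophage markers was 31.0 to 32.2 CPM in inhibitor mice and 26.9 to 30.3 CPM in controls, and that of 3 erythroid markers 21.0 to 32.6 CPM in inhibitor mice and 23.9 to 25.4 CPM in controls. That of 7 epididymal markers was 1.78 to 7.52 CPM in inhibitor mice, lowest in mouse 3, and 5.47 to 6.36 CPM in controls, with Lcn5 at 0 in every library. In whole testis, fewer cells of a type and less RNA per cell cannot be told apart. The part of cell composition in the results for the 5 genes was not tested.

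The 5 genes made up 1.34%, 1.35% and 1.18% of all fragments in inhibitor mice 1, 2 and 3, against 1.10%, 1.15% and 1.16% in controls 1, 2 and 3. Every inhibitor mouse was above every control, although mouse 3 exceeded control 3 by little. The means were 1.29% ± 0.0973 in inhibitor mice and 1.14% ± 0.0284 in controls (SD, n = 3 each). By deposited FPKM Prm1, Prm2, Tnp1 and Tnp2 took ranks 1 to 4 of 23361 and Prm3 rank 107. By CPM, not scaled by length, they took ranks 7, 2, 16 and 8 of 16658 tested genes, and Prm3 rank 2011. For the 5 genes the FPKM was 1.56 to 2.32 times the CPM per annotated kilobase. The median of that factor was 1.09 over genes with transcripts over 2000 nt. The fewest fragments behind a value of Tnp1, Tnp2, Prm1 or Prm2 were 46109, for Tnp1 in control 1, and the Prm3 values rested on 2675 to 5295 fragments.

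None of the 5 genes passed the test between inhibitor and control mice, where 0.156% of all genes did (0.0600% higher and 0.0960% lower, edgeR quasi-likelihood test). At an unadjusted p threshold of 0.05, 3 of the 5 (Tnp2, Prm1 and Prm2) were higher, as were 9.43% of all genes. DESeq2, with adjusted p, called 1 of the 5 higher, Prm2, where it called 2.19% of 16657 genes higher and gave 4523 genes no adjusted p. All 5 estimates were above 0, from 0.08 for Prm3 to 0.44 for Tnp1 on the log2 scale, against a median of -0.0041 over all genes tested. In Prm2 and Tnp2 every inhibitor mouse was above every control, as in 11.0% of all genes, and in Tnp1, Prm1 and Prm3 the groups overlapped.

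Tnp1 encodes the shorter transition protein, which is rich in lysine and arginine. Its level was 2795, 2769 and 1836 CPM in inhibitor mice 1, 2 and 3, against 1847, 1733 and 1869 CPM in controls 1, 2 and 3. Inhibitor mice 1 and 2 were far above every control, and inhibitor mouse 3 lay within the control range. The means were 2467 ± 546 CPM in inhibitor mice and 1816 ± 73.1 CPM in controls (SD, n = 3 each), a fold of 1.36 with a 95% confidence interval of 0.968 to 1.91 (log2 fold change 0.44, SE 0.185, edgeR adjusted p = 0.315). Without inhibitor mouse 3 the log2 fold change was 0.62 (SE 0.0377, edgeR adjusted p = 1.9e-06), a comparison in which 4 of the 5 genes were called higher, against 8.71% of all genes called higher and 14.3% called in either direction. These p-values weigh the difference between groups against the spread between mice, which edgeR estimates partly from other genes. A group of 2 mice gives that spread little support.

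GENCODE annotates a transcript on the opposite strand, 1700027A15Rik, that overlaps Tnp1 and shares 40 exonic bases with it. It was at 324, 326 and 243 CPM in inhibitor mice 1, 2 and 3 and at 206, 192 and 233 CPM in controls 1, 2 and 3. The antisense gene was thus also highest in inhibitor mice 1 and 2, while mouse 3 was slightly above the highest control. Its log2 fold change was 0.50 (SE 0.135, edgeR adjusted p = 0.151), without inhibitor mouse 3 it was 0.63 (edgeR adjusted p = 0.0016), and after the correction for transcript length and GC content it was 0.31. The libraries were made with a directional kit, but no source used here gives the strand setting of the counting, and reads of the shared bases cannot be assigned with certainty to one gene. The antisense gene had 5143 to 9313 fragments in a library and Tnp1 46109 to 80402.

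Tnp2 encodes the zinc-binding transition protein. It stood at 2926, 3042 and 2711 CPM in inhibitor mice 1, 2 and 3, against 2585, 2608 and 2710 CPM in controls 1, 2 and 3. The groups did not overlap, but inhibitor mouse 3 and control 3 were almost level. With means of 2893 ± 168 CPM in inhibitor mice and 2634 ± 66.8 CPM in controls, the fold was 1.10 (95% confidence interval 1.02 to 1.18, log2 fold change 0.14, SE 0.0469), which did not pass over all genes (edgeR adjusted p = 0.166). Without inhibitor mouse 3 it passed, at 0.18 (edgeR adjusted p = 0.0043).

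Prm1 encodes the protamine that is made directly in its mature, arginine-rich form. Its level was 3082, 3232 and 2584 CPM in inhibitor mice 1, 2 and 3, against 2498, 2576 and 2667 CPM in controls 1, 2 and 3. As for Tnp1, inhibitor mice 1 and 2 exceeded every control and inhibitor mouse 3 was among them. The means were 2966 ± 339 CPM in inhibitor mice and 2580 ± 84.3 CPM in controls, a fold of 1.15 (95% confidence interval 1.02 to 1.29, log2 fold change 0.20, SE 0.0755, edgeR adjusted p = 0.216). Without inhibitor mouse 3 the log2 fold change was 0.29 (edgeR adjusted p = 2.7e-04).

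Prm2 encodes a precursor that is cleaved step by step after it is bound to DNA. It was at 4640, 4467 and 4601 CPM in inhibitor mice 1, 2 and 3, against 3904, 4226 and 4142 CPM in controls 1, 2 and 3. In contrast to Tnp1 and Prm1, the level of inhibitor mouse 3 was between those of mice 1 and 2, and the groups did not overlap. The means of 4569 ± 90.4 CPM in inhibitor mice and 4090 ± 167 CPM in controls gave a fold of 1.12 (95% confidence interval 1.05 to 1.19, log2 fold change 0.16, SE 0.0414). Prm2 had the smallest p of the 5 genes and did not pass (edgeR adjusted p = 0.104). It passed in DESeq2 (log2 fold change 0.16, adjusted p = 0.049) and, in edgeR, without inhibitor mouse 3 (0.15, adjusted p = 0.015).

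Prm3 lies within the cluster but, unlike the other protamines, encodes an acidic protein that has been described in the cytoplasm of mouse spermatids. Its level was 117, 117 and 143 CPM in inhibitor mice 1, 2 and 3, against 121, 121 and 114 CPM in controls 1, 2 and 3. Here inhibitor mouse 3 was the highest of all mice, and inhibitor mice 1 and 2 lay within the control range. The means were 125 ± 14.9 CPM in inhibitor mice and 118 ± 3.69 CPM in controls (fold 1.06, 95% confidence interval 0.945 to 1.19, log2 fold change 0.08, SE 0.0746, edgeR adjusted p = 0.601). Without inhibitor mouse 3 the estimate turned to -0.02 (edgeR adjusted p = 0.816).

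**Figure D2:**
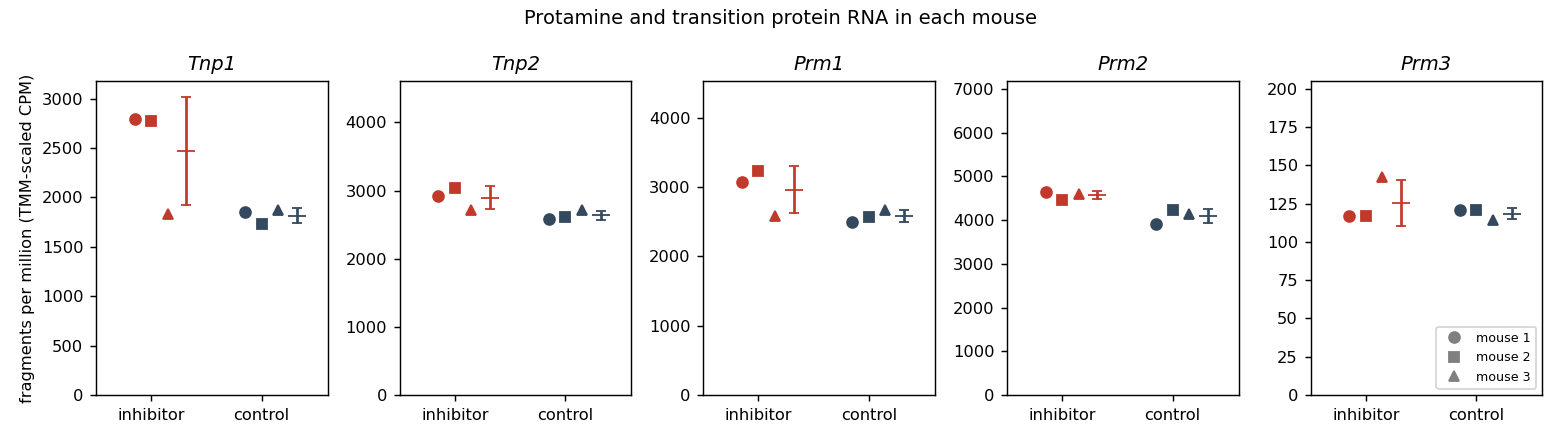
CPM of each gene in every inhibitor (left) and control (right) mouse, with mean and SD over 3 mice beside the points and the y axis from 0. Inhibitor mice 1 and 2 lead in Tnp1, at 2795 and 2769 CPM, where inhibitor mouse 3 is at 1836 CPM, and inhibitor mouse 3 leads in Prm3 at 143 CPM.

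The spread within the inhibitor group was wider than that among controls for 4 of the 5 genes. The coefficient of variation over mice was 22.2% in inhibitor mice and 4.02% in controls for Tnp1, and 11.4% in inhibitor mice and 3.27% in controls for Prm1. It was 11.9% in inhibitor mice and 3.11% in controls for Prm3, and 5.80% in inhibitor mice and 2.53% in controls for Tnp2. For Prm2 it was 1.98% in inhibitor mice and 4.09% in controls. With 3 mice in a group these spreads are themselves imprecise, and their difference was not tested.

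Ratios between genes within a library do not depend on how libraries are scaled. They were not corrected for transcript length and GC content. The fitted log2 trend differed between genes, at 0.18 for Tnp1 and 0.07 for Tnp2 in inhibitor mouse 1. The Prm2 to Prm1 ratio, often used to describe protamine balance in sperm, was 1.51, 1.38 and 1.78 in inhibitor mice 1, 2 and 3, against 1.56, 1.64 and 1.55 in controls 1, 2 and 3, as a ratio of fragments. The inhibitor mice lay on both sides of the controls. Their means were 1.56 ± 0.204 in inhibitor mice and 1.59 ± 0.0478 in controls (SD, n = 3 each), with p = 0.8 in an exact two-sided permutation test of the log2 ratios. The Tnp2 to Tnp1 ratio was 1.05, 1.10 and 1.48 in inhibitor mice 1, 2 and 3, against 1.40, 1.51 and 1.45 in controls. Mice 1 and 2 were below every control and mouse 3 was among them (exact permutation p = 0.3). The Tnp1 to Prm1 ratio was 0.907, 0.857 and 0.711 in inhibitor mice 1, 2 and 3, against 0.739, 0.673 and 0.701 in controls (exact permutation p = 0.2). The smallest p that 3 against 3 mice allow is 0.1, and adjusted over the 3 ratios the values were 0.8, 0.45 and 0.45. Among controls the steadiest pair of the 10 possible was Tnp2 to Prm1, whose ratio was 1.01 to 1.03, a coefficient of variation of 1.17%. In inhibitor mice the same ratio was 0.941 to 1.05.

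**Figure D3:**
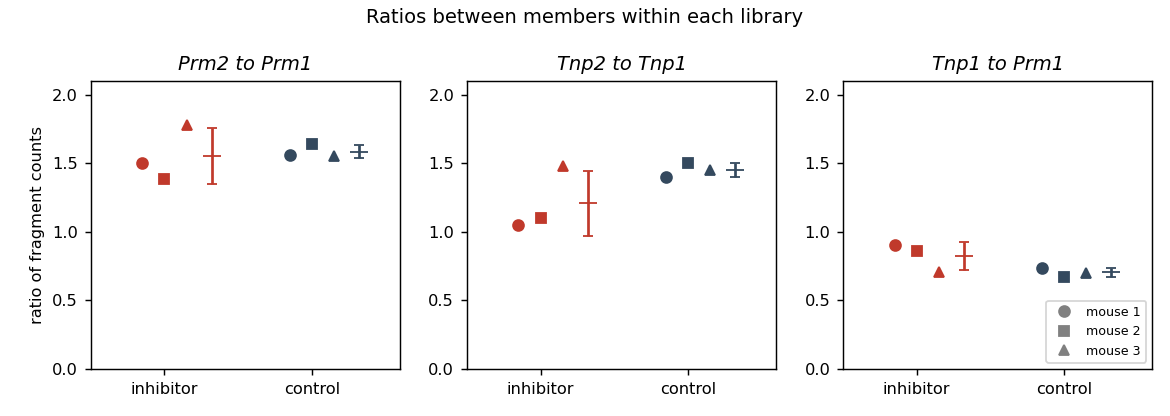
Ratios of fragment counts between genes within each library, by mouse, with mean and SD over 3 mice, inhibitor left and control right in each panel. In inhibitor mice 1 and 2 the Tnp2 to Tnp1 ratio is 1.05 and 1.10, while inhibitor mouse 3, at 1.48, is among the controls.

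Over the whole transcriptome, the departures of inhibitor mice 1 and 2 from the controls varied with transcript length. The part of transcript length in the values of the 5 genes was not tested beyond the correction given here. Among genes whose mean log2 CPM reached 5, the 104 others with transcripts of up to 700 nt had a median log2 difference from the control mean of 0.27, 0.32 and -0.0023 in inhibitor mice 1, 2 and 3. In the 3192 genes with transcripts over 3000 nt it was -0.03, -0.04 and 0.02. On the same scale Prm1 was at 0.26, 0.33 and 0.0022 in inhibitor mice 1, 2 and 3, close to the medians of short transcripts in each mouse. Tnp2 was at 0.15, 0.21 and 0.04, and Prm2 at 0.18, 0.13 and 0.17. Tnp1, at 0.62, 0.61 and 0.02, was further above the controls in mice 1 and 2 than most short transcripts, and Prm3, at -0.02, -0.02 and 0.27, was near the controls in mice 1 and 2 and above them in mouse 3. When the 109 short transcripts, these 5 included, were ordered by log2 fold change from the highest, Tnp1 stood at rank 8, Prm1 at 57, Prm2 at 67, Tnp2 at 74 and Prm3 at 87.

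**Figure D4:**
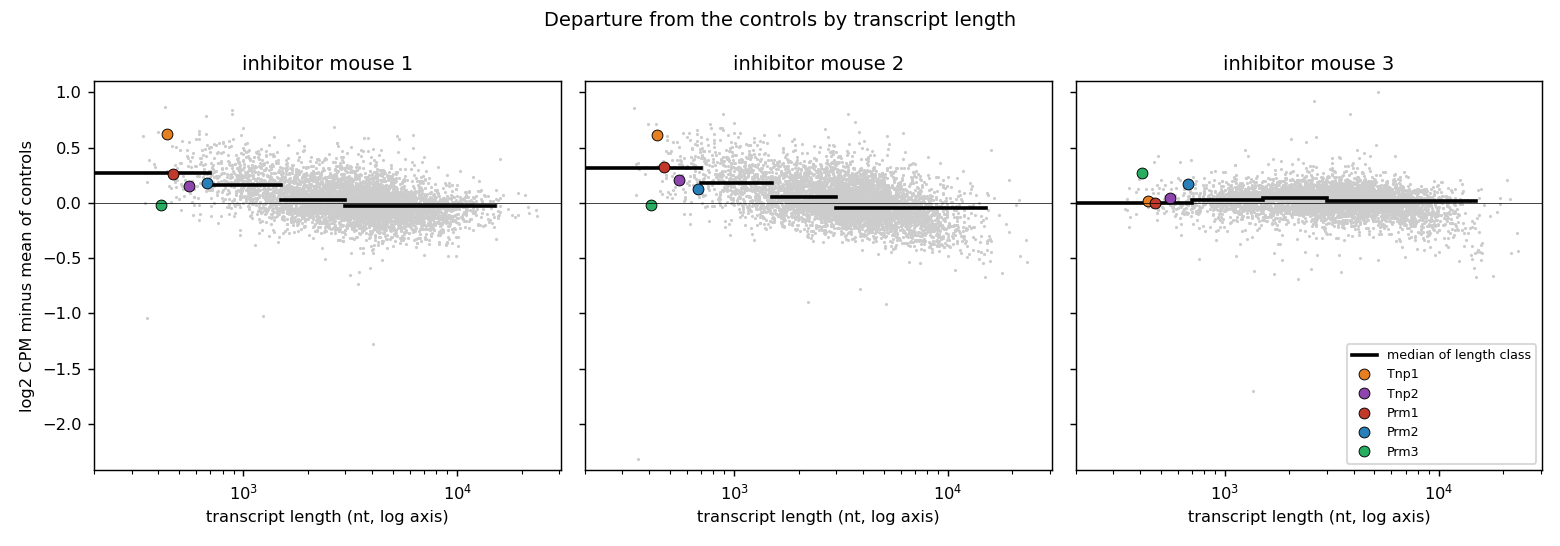
Difference in log2 CPM from the mean of the controls against transcript length (log axis) for each inhibitor mouse, with grey points for genes whose mean log2 CPM reached 5, black lines for the medians of 4 length classes and coloured points for the 5 genes. Short transcripts are shifted up in inhibitor mice 1 and 2, by 0.27 and 0.32 at the median up to 700 nt, and Tnp1 lies above that median while Prm3 lies below it.

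After a correction for transcript length and GC content, fitted in each library, the log2 fold changes were 0.24 for Tnp1 (SE 0.0762, edgeR adjusted p = 0.239), 0.08 for Tnp2, 0.08 for Prm1, 0.09 for Prm2 and 0.03 for Prm3, and none passed. Per mouse, Tnp1 was then 0.35, 0.31 and 0.03 above the control mean in inhibitor mice 1, 2 and 3, against -0.0056, 0.0054 and 0.00022 in controls 1, 2 and 3. The corrected Tnp1 values of inhibitor mice 1 and 2 thus remained above every control. That of mouse 3, within the control range before correction, was then slightly above every control. Prm1 was at 0.08, 0.14 and 0.02 after correction, against -0.05, 0.02 and 0.03 in controls 1, 2 and 3. For Prm1 inhibitor mouse 3 was thus still within the control range. Prm2 was then at 0.07, 0.01 and 0.19 in inhibitor mice 1, 2 and 3, against -0.05, 0.045 and 0.0048 in controls. Its groups thus overlapped after correction (edgeR adjusted p = 0.384). Tnp2 was at 0.05, 0.12 and 0.08, against -0.01, -0.02 and 0.03 in controls, without overlap. Prm3 was at -0.14, -0.11 and 0.31, against 0.03, 0.02 and -0.05 in controls. With the trend removed and inhibitor mouse 3 left out, a setting chosen after the data were seen, Tnp1 alone of the 5 passed, at 0.33 (SE 0.0317, edgeR adjusted p = 3.8e-05), and Prm3 stood at -0.13 (edgeR adjusted p = 0.0999). Over all 16871 genes tested in that setting, 782 were called higher and 366 lower.

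**Figure D5:**
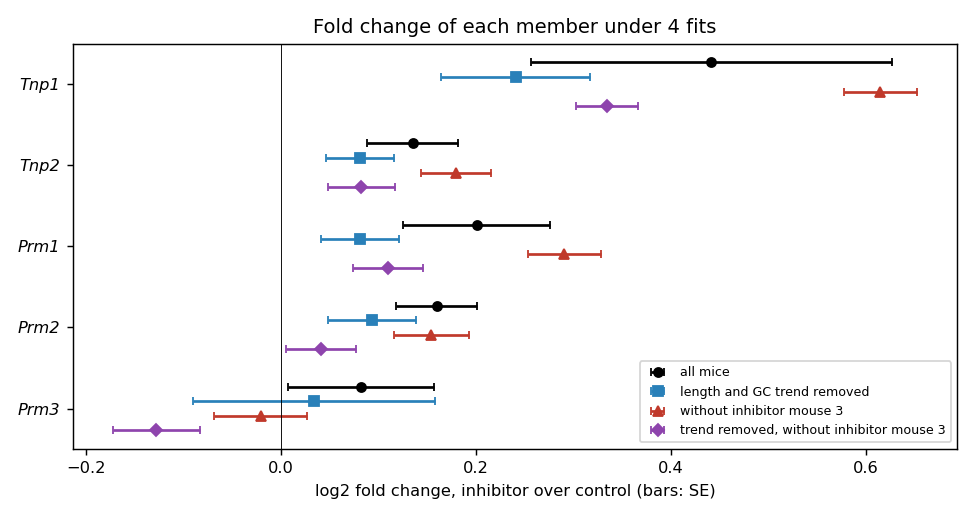
Log2 fold change of each gene, inhibitor over control, with its SE, in the fit to all mice and in 3 alternatives. Tnp1 is at 0.44 with all mice, 0.24 with the length and GC trend removed, 0.62 without inhibitor mouse 3 and 0.33 with both, and Prm3 is on both sides of 0.

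The order of levels among the genes depended on how length was taken into account. In deposited FPKM, Prm1 was first with 14647 ± 1647 in inhibitor mice and 12728 ± 411 in controls, followed by Prm2 with 10927 ± 219.96 in inhibitor mice and 9767 ± 373 in controls (SD, n = 3 each). Tnp1 had 10776 ± 2366 FPKM in inhibitor mice and 7925 ± 343 FPKM in controls, and Tnp2 8148 ± 457 FPKM in inhibitor mice and 7409 ± 192 FPKM in controls. Prm3, at 598 ± 72.4 FPKM in inhibitor mice and 565 ± 17.1 FPKM in controls, was far below the others. Over mice, the range of Tnp1 overlapped those of Prm2 and Tnp2 in inhibitor mice and that of Tnp2 in controls. Within every library, however, Tnp1 was above Tnp2, in control 2 at 7533 against 7307 FPKM. Tnp1 was above Prm2 in inhibitor mice 1 and 2 and below it in inhibitor mouse 3 and every control. As CPM per kilobase of the longest annotated transcript, Prm2 came first in both groups, with 6779 ± 134 in inhibitor mice and 6069 ± 248 in controls, and Prm1 followed with 6323 ± 723 in inhibitor mice and 5502 ± 179.8 in controls. On that scale the values of Prm1 and Prm2 overlapped in inhibitor mice and not in controls. The deposited FPKM was 2.32 times the value per annotated kilobase for Prm1 and 1.61 times for Prm2, against a median of 1.09 over 6989 genes with transcripts over 2000 nt. The length that the FPKM implies for Prm2 was 2.07 times that of Prm1, whereas the annotated lengths differ 1.44 times. The order of Prm1 and Prm2 thus differed between the measures. Per kilobase, Tnp1 was at 5645 ± 1251 and Tnp2 at 5222.5 ± 303 in inhibitor mice. In controls Tnp1 was at 4156 ± 167 and Tnp2 at 4755 ± 121. The order of the Tnp1 and Tnp2 means thus also differed between the measures in controls, though not in inhibitor mice. Prm3 was lowest by either measure.

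Genes that act with the protamines and transition proteins were examined in lists, and over all genes tested the median log2 fold change was -0.0041. Over all genes 9.43% were higher and 8.48% lower at an unadjusted edgeR p under 0.05, and DESeq2 called 2.19% higher. With the length and GC trend removed the median over all genes was 0.0043, and values so corrected are given beside the lists. Of 10 tested histone variants of spermatocytes and spermatids, 6 were higher and 4 lower in inhibitor mice, and the median log2 fold change was 0.11. None passed in edgeR, 3 higher and 1 lower had an unadjusted p under 0.05, and DESeq2 called 1 higher (H2afz) and gave 3 genes of low counts no adjusted p. Hils1, a linker histone of elongating spermatids, was at 603 ± 79.0 CPM in inhibitor mice and 515 ± 24.9 CPM in controls (log2 fold change 0.23, edgeR adjusted p = 0.242). H1fnt, the other linker histone of spermatids, was at 567 ± 23.5 CPM in inhibitor mice and 562 ± 2.23 CPM in controls (0.01, edgeR adjusted p = 0.909), and both were named outside the rule. The members with the smallest p were H2afz (0.23), H2afx (-0.18) and H3f3a (0.21), with edgeR adjusted p of 0.093, 0.154 and 0.185. H2afz and H3f3a encode variant histones deposited outside DNA replication, and H2afx encodes the variant phosphorylated at DNA breaks and on the sex chromosomes in meiosis. After correction the median of the list was 0.06, with H2afz at 0.09, H2afx at -0.11, H3f3a at 0.14, Hils1 at 0.14 and H1fnt at 0.02.

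Of 27 tested genes for histone marks, their readers and remodellers of histone removal, 14 were higher and 13 lower, with a median of 0.0059. None passed in edgeR or DESeq2, and 4 higher and 4 lower had an unadjusted edgeR p under 0.05. Brdt, the testis bromodomain protein that binds acetylated histones, was at 410 ± 11.6 CPM in inhibitor mice and 376 ± 3.35 CPM in controls (log2 fold change 0.13, edgeR adjusted p = 0.154). Chd5, a remodeller needed for histone removal in mouse spermatids, was at 503 ± 30.5 CPM in inhibitor mice and 560.0 ± 26.4 CPM in controls (-0.16, edgeR adjusted p = 0.160). Camk4, a kinase known to phosphorylate protamine 2, and Hspa2, a chaperone of transition proteins in mice, both named outside the rule, had log2 fold changes of 0.05 and -0.07 (edgeR adjusted p = 0.761 and 0.477). After correction the median was 0.02 and Chd5 turned to 0.01, while Brdt was at 0.13, Camk4 at 0.03 and Hspa2 at -0.05.

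Of 14 tested transcription regulators of spermatid genes, 8 were higher and 6 lower, with a median of 0.01. None passed in edgeR, 3 higher and 1 lower had an unadjusted p under 0.05, and DESeq2 called 1 higher (Tbpl1). Tbpl1, a TBP-related factor of spermatids, was at 363 ± 23.7 CPM in inhibitor mice and 308 ± 6.67 CPM in controls, the smallest p of this list (0.24, edgeR adjusted p = 0.083), and Tbp and Brwd1 followed at 0.13 and -0.19. Crem and its coactivator Fhl5, named outside the rule, stood at 0.16 and 0.21 (edgeR adjusted p = 0.250 and 0.427). Kdm3a, a histone demethylase known to act on the Prm1 and Tnp1 promoters in mice and also named outside the rule, was at 237 ± 1.20 CPM in inhibitor mice and 234 ± 3.97 CPM in controls. Its log2 fold change was 0.02 (edgeR adjusted p = 0.860). After correction the median was 0.02, with Tbpl1 at 0.17, Tbp at 0.19, Brwd1 at -0.13, Crem at 0.09, Fhl5 at 0.04 and Kdm3a at 0.04.

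Of 21 tested genes for storage and delayed translation of spermatid messages, 12 were higher and 9 lower, with a median of 0.0032. In edgeR none passed, 5 higher and 3 lower had an unadjusted p under 0.05, and DESeq2 called 1 higher (Paip2). Ybx2, the Y-box protein that coats stored messages such as those of the protamines, was at 1909 ± 81.9 CPM in inhibitor mice and 1965 ± 44.7 CPM in controls (-0.04, edgeR adjusted p = 0.649), and was named outside the rule. Those with the smallest p were Paip2 (0.23), a repressor of poly(A)-binding protein, Ybx1 (0.16) and Ddx25 (0.19), an RNA helicase of spermatids (edgeR adjusted p = 0.104, 0.112 and 0.123). In each of these 3 genes, picked for their small p, all inhibitor mice were above all controls. Over the whole list this held for 7 of 21 genes, against 11.0% of all genes. In 3 of the 21 every inhibitor mouse was below every control, against 11.9% of all genes. After correction the median was 0.04, Ybx2 turned to 0.06, Paip2 was at 0.06, Ybx1 at 0.12 and Ddx25 at 0.26.

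Other genes of elongating spermatids gave the nearest comparison. Of 22 tested, 18 were higher and 4 lower in inhibitor mice, with a median log2 fold change of 0.08. None passed in edgeR, 8 higher and 1 lower had an unadjusted p under 0.05, against 9.43% and 8.48% of all genes, and DESeq2 called 4 higher (Akap4, Cabs1, Hook1 and Cypt1), against 2.19% of all genes. Hook1, which encodes a microtubule-linked protein of spermatid shaping, stood at 0.19, Akap4, a component of the fibrous sheath, at 0.17 and Cabs1 at 0.20 (edgeR adjusted p = 0.084, 0.093 and 0.103). In 7 of the 22 every inhibitor mouse was above every control, against 11.0% of all genes. Smcp and Odf1, abundant messages of the sperm tail and named outside the rule, were at 0.04 and -0.00023. After correction the median was 0.05, with Hook1 at 0.19, Akap4 at 0.14 and Cabs1 at 0.04, and Smcp turned to -0.11 with Odf1 at -0.09. Round spermatid genes had a median of 0.06, with 12 of 15 higher. In edgeR none passed, 4 higher and none lower had an unadjusted p under 0.05, against 9.43% and 8.48% of all genes, and DESeq2 called 1 higher (Zpbp2), against 2.19% of all genes. Their members with the smallest p were Zpbp2 (0.27), Dpy19l2 (0.15) and Lyzl1 (0.21). After correction the median of the round spermatid genes was 0.0065, close to the 0.0043 of all genes, with Zpbp2 at 0.17, Dpy19l2 at 0.08 and Lyzl1 at 0.02. Without inhibitor mouse 3, 8 of the 22 elongating and 4 of the 15 round spermatid genes were called higher and none lower. Over all genes, 1470 of 16871 (8.71%) were then called higher and 935 lower. In that comparison 4 of the 10 histone variants were called higher and 0 lower. Of the 27 genes of histone marks and removal, 2 were called higher and 5 lower. The counts were 3 higher and 1 lower of 14 transcription regulators, and 6 higher and 1 lower of 21 storage genes.

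Of 7 tested genes around the cluster, 3 were higher and 4 lower, with a median of -0.10. None passed in edgeR or DESeq2, which gave 2 of them no adjusted p, and none had an unadjusted edgeR p under 0.05. Socs1, the next gene downstream of Tnp2, was at 3.06, 4.37 and 2.55 CPM in inhibitor mice 1, 2 and 3, against 3.72, 3.99 and 3.37 CPM in controls (log2 fold change -0.17, edgeR adjusted p = 0.692). Txndc11, Litaf and Clec16a, which had the smallest p of the neighbours, stood at -0.18, -0.14 and 0.05, and after correction at -0.14, -0.19 and 0.18, with a list median of -0.05 and Socs1 at -0.06. The highest of the neighbours, Clec16a, was at 72.4 ± 2.64 CPM in inhibitor mice and 70.0 ± 1.16 CPM in controls.

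Among 5828 other genes whose mean log2 CPM reached 5, those whose profile over the 6 libraries was nearest to the mean profile of the 5 genes were Dnajb9, Asb8, Chmp2b, Mrpl51 and Ghitm, at root mean square differences of 0.011 to 0.020 in log2 CPM. They were chosen for this likeness, so their differences between groups are not tested here. The 5 genes themselves were at differences from their own mean of 0.035 for Tnp2, 0.053 for Prm1, 0.066 for Prm2, 0.16 for Prm3 and 0.19 for Tnp1. The nearest genes were picked for closeness from 5828, so their smaller differences do not show how alike the 5 genes are.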

How the data were processed

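Polyadenylated RNA of whole testes was sequenced as single-end reads of 81 nt from directional libraries made from 500 ng of RNA, per the labels' protocols and the series' design text. The tools named are Cuffdiff 2.2.1, TopHat2 2.0.13 and cutadapt 1.8, with the build mm10, per the submitters' processing notes. No source used here gives the annotation or strand setting. The deposited table gives fragments per gene and library, which are estimated counts before scaling (98.8% of 140166 values whole within 1e-06, all values of the 5 genes whole), and FPKM values scaled by the authors' software. Estimated counts were rounded. Per the labels each library is a separate mouse.

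The main test was that of edgeR 4.0.16 under R 4.3.3 (filterByExpr, trimmed mean of M values (TMM), robust quasi-likelihood F-test, two-sided, Benjamini-Hochberg adjustment over 16658 genes). CPM values are scaled by TMM. Intervals are 95% and use the test's SE and degrees of freedom. Ratios were compared by exact permutation of log2 ratios over mice. The length and GC correction was an offset from a loess fit in each library (span 0.5, genes of mean log2 CPM above 1) on the length and GC content of the longest GENCODE M21 transcript, and 93.3% of tested genes had a length. Alternatives were other scalings, filters and tests (DESeq2 1.42.0, limma 3.58.1), the mouse number as a block, and each mouse left out.

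The genes and lists were chosen with earlier results of these data known. From each list the 3 tested genes with the smallest p are named, except 1 that is not reported here, and the 5 genes with the nearest profile. Of 185 list symbols 181 matched the table, some by an older symbol.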

Additional observations from a re-analysis of the deposited data

How the results depend on the processing

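The direction of Tnp1, Tnp2, Prm1 and Prm2 was above 0 in all 18 alternatives. Leaving out single mice gave log2 fold changes of 0.34 to 0.62 for Tnp1, 0.10 to 0.18 for Tnp2, 0.13 to 0.29 for Prm1, 0.13 to 0.19 for Prm2 and -0.021 to 0.13 for Prm3, which turned below 0 (-0.0209) without inhibitor mouse 3. Without that mouse 4 of the 5 genes passed, and 0 passed without any other. With the length and GC trend removed as well, 1 passed (Tnp1, 0.33), Prm3 was at -0.13 and 1148 of 16871 genes passed in all. DESeq2 called 1 of the 5, Prm2 (0.16). Over all genes 26 passed, against 531 in DESeq2, 14 in limma-voom, 0 and 1 in limma on log2(FPKM + 1) and log2(FPKM + 0.1), 115 with no filter, 10 with at least 50 counts in 3 libraries, and 0 to 2405 with single mice left out. For the limma count of 0, 1603 genes were higher and 1179 lower at an unadjusted p threshold of 0.05. Library totals alone gave 4 higher and 23 lower calls in place of 10 and 16. The Prm2 to Prm1 difference in log2 ratio was -0.03 and ranged from -0.14 to 0.047 with single mice left out, turning above 0 (0.0470) without inhibitor mouse 2. Tnp2 to Tnp1 ranged from -0.44 to -0.19 and Tnp1 to Prm1 from 0.15 to 0.33. The log2 ratio of Prm1 to Prm2 levels was 0.40 in FPKM and -0.12 per annotated kilobase. The cause of these changes was not tested.

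With the mouse number as a replicate block 5 genes passed in all, none of them a protamine or transition protein gene. Log2 fold changes under the block were 0.42 for Tnp1, 0.13 for Tnp2, 0.19 for Prm1, 0.16 for Prm2 and 0.08 for Prm3. The numbers do not pair the mice by the labels, and the deviations of same-numbered mice had correlations of 0.062, -0.116 and -0.020. Pairing the log2 ratios by mouse number leaves the mean differences unchanged by arithmetic, at -0.03, -0.28 and 0.22 in the order above.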

Other observations

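Among the other elongating spermatid genes, the highest estimates, named after their values were seen, were those of Cypt1, Iqcf1 and Ropn1. Cypt1, with a transcript of 672 nt, was at 78.4 ± 16.9 CPM in inhibitor mice and 53.3 ± 3.67 CPM in controls (SD, n = 3 each), a log2 fold change of 0.56 (edgeR adjusted p = 0.174), called in DESeq2. Iqcf1, with 698 nt, was at 144 ± 18.3 CPM in inhibitor mice and 121 ± 4.31 CPM in controls (0.25, edgeR adjusted p = 0.159). Ropn1, with 1147 nt, was at 379 ± 56.3 CPM in inhibitor mice and 319 ± 13.5 CPM in controls (0.25, edgeR adjusted p = 0.276). After the correction for transcript length and GC content, the log2 fold changes were 0.36 for Cypt1, 0.13 for Iqcf1 and 0.10 for Ropn1. In all 3 genes inhibitor mouse 3 was the lowest of the inhibitor mice. Other short messages of the list stood lower: Lelp1, with 857 nt, was at -0.0081 and Smcp, with 861 nt, at 0.04, and after correction they were at -0.12 and -0.11.

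The testis histone genes Hist1h1t and Hist1h2ba were at 2.02 ± 0.431 CPM and 0.739 ± 0.116 CPM in inhibitor mice and at 2.28 ± 0.153 CPM and 0.853 ± 0.339 CPM in controls. These are levels of polyadenylated RNA only, and not of all messages of these genes.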
